A study of Mus musculus with 7 samples.

Results

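The NLRP3 inflammasome and its neighbouring components were followed here as 9 genes, taken by symbol from the deposited count table: Nlrp3, Aim2, Nlrp1b, Nek7, Pycard, Casp1, Casp4, Gsdmd and Il18. All 9 symbols were found among the 25571 rows of the table, and all 9 passed the low-count filter that left 15822 genes for testing. The list was chosen by function with edgeR's values for the same 2 groups in view: among all genes tested, Nlrp3 had the smallest edgeR p between the groups, rank 1, whereas the other members ranked from 1374 (Casp4) to 15051 (Nlrp1b). The differences between groups given for these genes are therefore a description.

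RNA came from CD11b+ tumour-associated macrophages, sorted by flow cytometry from dissociated orthotopic T387 glioblastoma xenografts in the brains of NSG mice, a strain that lacks T, B and NK cells. One group of 3 samples came from mice given the vehicle alone, a mixture of DMSO, PEG300, Tween-80 and PBS, and the other group of 4 samples came from mice given Pracinostat, an inhibitor of zinc-dependent histone deacetylases, by oral gavage at 30 mg/kg. Both groups were dosed 4 times per week for 3 weeks, starting 7 days after implantation. The labels call the samples biological replicates but name neither the animals nor their age, so p-values measure the spread between these samples. The sorted antigen CD11b marks microglia and infiltrating myeloid cells alike, and NSG mice carry a NOD background, whereas the reference genome is that of C57BL/6J.

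Inflammasomes are cytosolic platforms that turn danger signals into proteolysis. A sensor such as NLRP3 or AIM2 recruits the adaptor ASC, encoded by Pycard, which clusters and activates caspase-1. Caspase-1 cleaves pro-interleukin-1 beta and pro-interleukin-18 and opens the pore former gasdermin D. Expression of Nlrp3 and of Il1b is itself inducible by NF-kappaB signalling, a step called priming. Transcript levels do not show whether the complex assembled, and whether priming differed between the groups was not tested.

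Promoter sequences are shown for Nlrp3, the member whose groups did not overlap, for Casp4, which had the next largest difference, and for Pycard, the adaptor that NLRP3 needs. They come from RefSeq (GRCm38.p6), where 8 of the 9 members matched an entry by symbol, and each holds 250 bases before and 50 after an annotated start, 5′ to 3′ on the gene's strand. The libraries' counts are per gene and do not separate the annotated starts of Nlrp3. Capitals mark matches, on either strand, to GGGA and CC with any 4 bases between (an NF-kappaB-type motif) or to GAGGAA (the core of a PU.1-type motif).
Nlrp3, chr11:59541319-59541618, plus strand: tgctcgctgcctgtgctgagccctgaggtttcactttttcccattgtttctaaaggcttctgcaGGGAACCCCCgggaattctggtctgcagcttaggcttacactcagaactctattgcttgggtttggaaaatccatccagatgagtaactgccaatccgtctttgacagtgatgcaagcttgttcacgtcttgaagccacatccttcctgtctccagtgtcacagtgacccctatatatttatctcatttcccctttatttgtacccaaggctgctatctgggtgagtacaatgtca
Nlrp3, chr11:59542436-59542735, plus strand: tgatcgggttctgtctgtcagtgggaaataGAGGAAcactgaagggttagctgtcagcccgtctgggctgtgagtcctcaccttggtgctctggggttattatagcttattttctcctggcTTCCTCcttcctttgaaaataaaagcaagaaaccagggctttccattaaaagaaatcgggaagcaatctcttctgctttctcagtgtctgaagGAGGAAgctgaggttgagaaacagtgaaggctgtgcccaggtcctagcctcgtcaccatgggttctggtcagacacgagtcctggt
Casp4, chr9:5308599-5308898, plus strand: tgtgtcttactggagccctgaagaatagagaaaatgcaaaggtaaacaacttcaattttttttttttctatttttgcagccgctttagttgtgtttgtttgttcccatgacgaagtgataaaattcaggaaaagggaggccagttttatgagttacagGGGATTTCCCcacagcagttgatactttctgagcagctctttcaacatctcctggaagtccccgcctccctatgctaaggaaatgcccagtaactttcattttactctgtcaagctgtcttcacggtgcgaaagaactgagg
Pycard, chr7:127993818-127994117, minus strand: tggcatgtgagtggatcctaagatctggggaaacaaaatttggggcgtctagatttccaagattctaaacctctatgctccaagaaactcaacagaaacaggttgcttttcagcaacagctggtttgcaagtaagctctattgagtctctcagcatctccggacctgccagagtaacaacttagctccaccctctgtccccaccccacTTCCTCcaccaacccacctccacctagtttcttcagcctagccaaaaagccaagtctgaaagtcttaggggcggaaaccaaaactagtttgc
Counted from 1 at the 5′ end, the first Nlrp3 window holds 1 NF-kappaB-type match at bases 65 to 74 and the Casp4 window 1 at bases 159 to 168. The second Nlrp3 window holds 3 matches to GAGGAA, starting at bases 31, 122 and 215, and the Pycard window holds 1, at bases 209 to 214. Among the members not shown, the NF-kappaB-type letters also occur in the Nek7 window, at bases 219 to 228, and GAGGAA occurs in windows of Aim2, Casp1 and Nlrp1b. None of the marked matches overlap each other. Of 32851 promoter windows of the same length in the table, 20.7% hold the NF-kappaB-type letters and 28.3% hold GAGGAA. Searches for TGANTCA, an AP-1-type motif (7.81% of windows), and for TTTC and TTTC with any 2 bases between, an interferon-response-type motif (3.44%), found no match in the members' windows. These matches describe letters and not binding.

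Library totals ran from 10142753 to 16950597 counts, with 16319 to 19244 genes detected. Levels are given as CPM, counts divided by a library total that was adjusted by the TMM method and put on a common scale. Itgam, which encodes CD11b, stood at 1318 to 1688 CPM with DMSO and 1448 to 2580 CPM with Pracinostat, and Ptprc, which encodes the leukocyte antigen CD45, at 472 to 733 and 521 to 678 CPM. Summed over 10 markers of macrophages and microglia, the level was 8465 to 9947 CPM with DMSO and 9231 to 12886 CPM with Pracinostat, so the labelled cell type was present in each library. Less RNA of a gene per cell and fewer cells that carry it cannot be told apart in these bulk libraries.

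Among the sensors, Nlrp3 stood higher in each Pracinostat library than in any DMSO library. NLRP3 senses potassium loss and other signs of membrane damage. Its level was 305, 396 and 399 CPM in DMSO replicates 1 to 3 and 788.5, 974, 568 and 676 CPM in Pracinostat replicates 1 to 4. The lowest Pracinostat library, replicate 3, was above the highest DMSO library, and the spread among the Pracinostat libraries (SD 174 CPM, n = 4) was wider than among the DMSO libraries (SD 53.4 CPM, n = 3). The log2 fold change was 1.04 ± 0.19 (edgeR, SE), a fold of 2.05 with a 95% interval of 1.54 to 2.72. Its adjusted p was 0.482 in edgeR's quasi-likelihood test, which did not pass. The difference was not carried by 1 library, since leaving out each in turn gave log2 fold changes of 0.88 to 1.15. Of all 15822 genes tested, 0 (0%) had an edgeR adjusted p under 0.05 and 661 (4.18%) an unadjusted p under 0.05; of the 9 members 0 and 1 did, the 1 being Nlrp3, higher with Pracinostat (2.81% of all genes were higher and 1.37% lower at that p). A log2 fold change of at least 1 in either direction was seen in 13% of all genes and in 1 of the 9 members, again Nlrp3. DESeq2 called 27 genes (0.171%), Nlrp3 among them, with an adjusted p of 0.00106, and limma-voom called 0 (0%). Since the list was chosen with this contrast known, nothing is read from these counts.

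**Figure D1:**
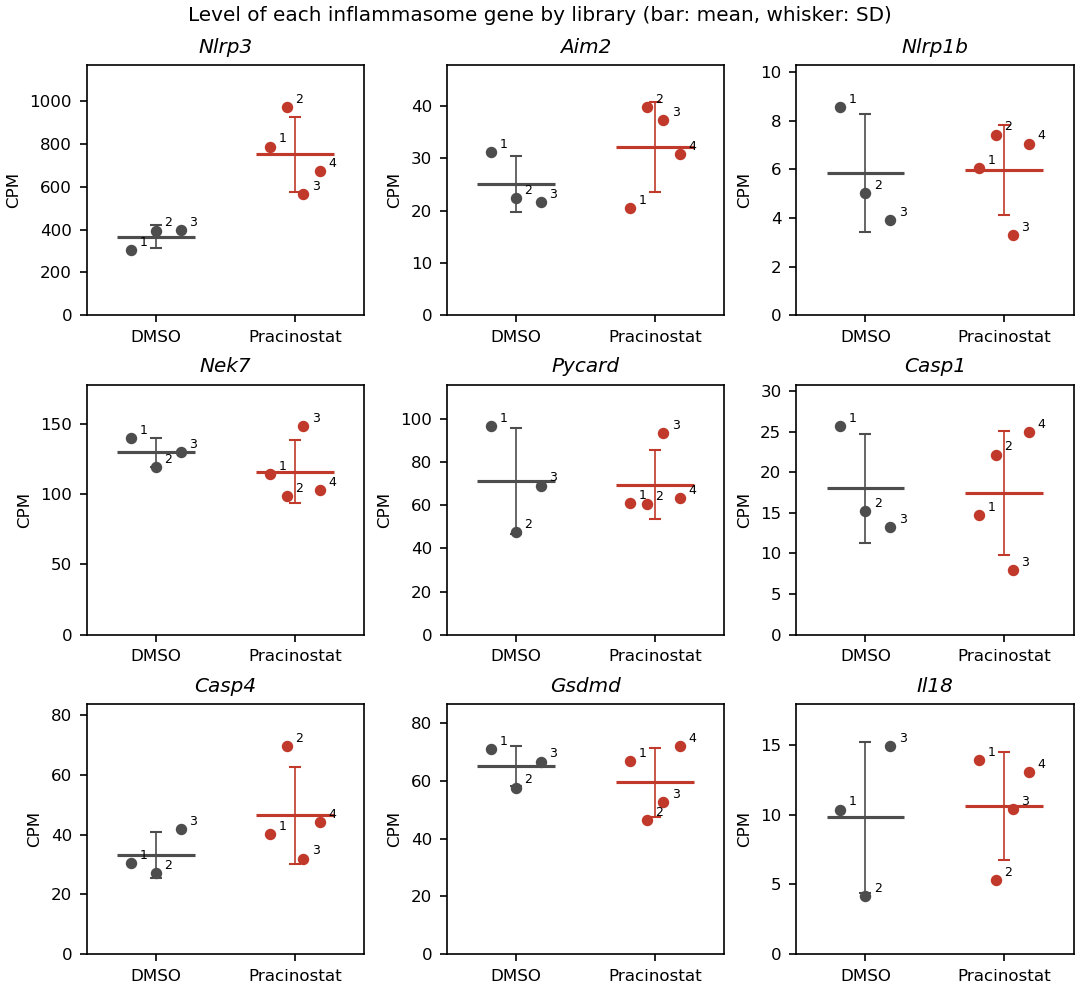
Level of each of the 9 genes in CPM (vertical axis, linear from 0) in the 3 DMSO and 4 Pracinostat libraries. Points are libraries with their replicate number, bars are means and whiskers SD; the groups are apart for Nlrp3 (305 to 399 against 568 to 974 CPM) and overlap for the other 8 genes.

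The DNA sensor Aim2, whose product binds double-stranded DNA in the cytosol, overlapped between the groups. It stood at 31.3, 22.4 and 21.6 CPM with DMSO and at 20.5, 39.9, 37.4 and 30.8 CPM with Pracinostat, so Pracinostat replicate 1 was the lowest of all 7 libraries and Pracinostat replicate 2 the highest. The log2 fold change was 0.36 ± 0.28, with a fold between 0.841 and 1.95 in the 95% interval. Nlrp1b, which encodes a sensor that proteases can activate by cutting its N-terminus, was the lowest member. It stood at 8.57, 5.04 and 3.93 CPM with DMSO and 6.07, 7.43, 3.31 and 7.06 CPM with Pracinostat, from 50 to 122 counts per library. Its log2 fold change was 0.029 ± 0.53, with a fold between 0.461 and 2.26 in the 95% interval. Nlrp1b also has close paralogs and differs between mouse strains, so its counts are uncertain; how much this matters was not tested.

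Nek7 and Pycard, the partners that NLRP3 needs for assembly, did not show the difference seen for Nlrp3. NEK7 is a kinase that bridges NLRP3 subunits. Nek7 stood at 140, 119 and 130 CPM with DMSO and 114, 98.4, 148 and 103 CPM with Pracinostat. Of the Pracinostat libraries 3 were below the whole DMSO range and replicate 3 was above it. Without that library the groups did not overlap, but it was picked by its value, so nothing is read from its removal. Its log2 fold change over all 7 libraries was -0.16 ± 0.18, and the 95% interval ran from a fold of 0.687 to 1.16. Pycard stood at 96.6, 47.5 and 69.2 CPM with DMSO and 61.1, 60.6, 93.5 and 63.3 CPM with Pracinostat. DMSO replicate 1 and Pracinostat replicate 3 were high and the other libraries were below 70 CPM, so the high values did not follow the groups. The log2 fold change of Pycard was -0.030 ± 0.24, with a 95% interval of 0.681 to 1.41 in fold. For both genes a 2-fold difference lay outside the interval.

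The inflammatory caspases and their substrate gave overlapping groups as well. Casp1 encodes the protease that matures interleukin-1 beta and interleukin-18. It stood at 25.6, 15.2 and 13.2 CPM with DMSO and at 14.7, 22.2, 7.94 and 24.9 CPM with Pracinostat. Pracinostat replicate 3 was the lowest of the 7 libraries, and DMSO replicate 1 the highest. The log2 fold change of -0.047 ± 0.40 had no stable direction: it was 0.30 without DMSO replicate 1, 0.033 without Pracinostat replicate 1 and 0.20 without Pracinostat replicate 3. Casp4, the mouse gene for caspase-11, which responds to lipopolysaccharide in the cytosol, had the largest positive difference after Nlrp3. Its levels were 30.4, 27.1 and 41.7 CPM with DMSO and 40.2, 69.6, 31.9 and 44.1 CPM with Pracinostat. Pracinostat replicate 2 was high, while DMSO replicate 3 lay within the Pracinostat range. Without DMSO replicate 3 the groups did not overlap, but it was picked by its value, so nothing is read from its removal. The log2 fold change was 0.49 ± 0.28, with a fold of 0.926 to 2.13 in the 95% interval and an edgeR adjusted p of 0.9998.

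Gsdmd, which encodes the pore-forming substrate of both caspases, was among the steadiest members. It stood at 71.1, 57.8 and 66.8 CPM with DMSO and at 67.0, 46.6, 52.7 and 72.2 CPM with Pracinostat, which gave a log2 fold change of -0.13 ± 0.20 and a 95% interval of 0.675 to 1.24 in fold. Pracinostat replicate 2, the library with the most Nlrp3, had the least Gsdmd. Il18, the cytokine that caspase-1 cuts and that drives interferon-gamma production, stood at 10.4, 4.16 and 14.9 CPM with DMSO and 13.9, 5.30, 10.4 and 13.1 CPM with Pracinostat. It was lowest in DMSO replicate 2 and next lowest in Pracinostat replicate 2, and the other 5 libraries lay between 10.4 and 14.9 CPM. Its log2 fold change was 0.11 ± 0.49, with a 95% interval of 0.525 to 2.23 in fold. Its counts were 52 to 232 per library.

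Over the 9 members, 1 had groups that did not overlap, against 965 (6.1%) of all genes tested, 3.51% higher and 2.59% lower with Pracinostat. Their median log2 fold change was 0.029, beside 0.020 over all genes tested. Of the 9, 5 were positive and 4 negative, and over all genes tested 52.3% were positive. Without Nlrp3, the other 8 ran from -0.16 (Nek7) to 0.49 (Casp4), 4 of them positive and 4 negative.

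**Figure D2:**
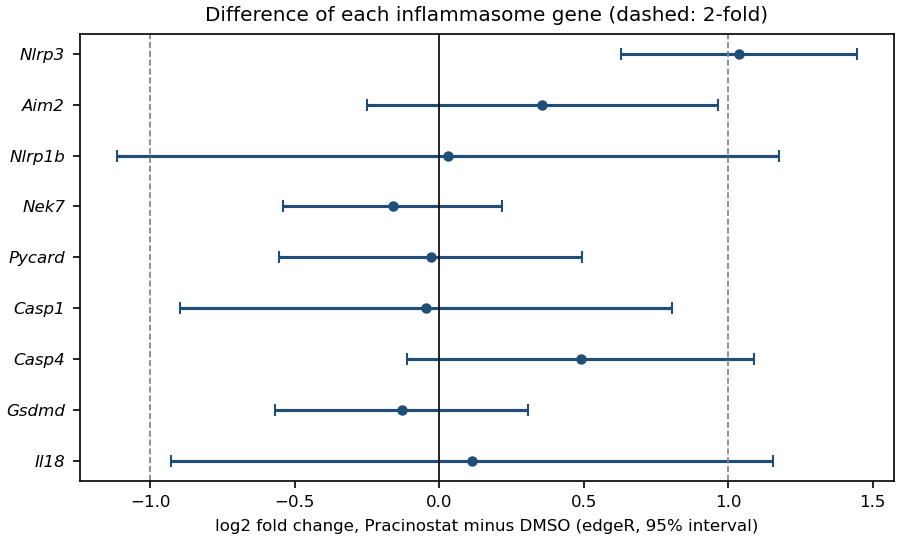
Log2 fold change of each of the 9 genes, Pracinostat minus DMSO (horizontal axis), from edgeR's fit to all genes, with 95% intervals as whiskers. Dashed lines mark a 2-fold difference in either direction; the interval of Nlrp3 runs from 0.63 to 1.44, and the intervals of the other 8 include 0.

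Because Nlrp3 stood apart while its partners did not, its level was set against each partner within each library, on counts per coding length (the longest coding sequence per gene in GENCODE M21), which removes the scaling between libraries. Each ratio has Nlrp3 as its numerator, so the ratios restate a difference already known and are a description. Per unit of coding length, Nlrp3 transcripts were 2.02, 3.23 and 2.81 times those of Gsdmd with DMSO and 5.55, 9.86, 5.08 and 4.41 times with Pracinostat. Against Nek7 the ratio was 0.636, 0.973 and 0.898 with DMSO and 2.02, 2.89, 1.12 and 1.92 with Pracinostat. For these 2 partners the groups did not overlap. On this scale only, Nlrp3 passed Nek7 in each of the 4 Pracinostat libraries and in none of the 3 DMSO libraries. Scaled by the whole transcript, Nlrp3 was above Nek7 with DMSO too (means of 93.2 and 24.7 CPM per kilobase). Against Pycard the ratio per coding length was 0.589, 1.56 and 1.08 with DMSO and 2.41, 3.00, 1.14 and 1.99 with Pracinostat. There Pracinostat replicate 3, with its high Pycard and low Nlrp3, fell among the DMSO libraries, and the groups overlapped, as they did for the ratios to Casp1, Casp4, Il18, Aim2 and Nlrp1b. Nlrp3 made up 17.3 to 28.6% of the summed length-scaled level of the 9 genes with DMSO and 28.9 to 45.6% with Pracinostat.

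**Figure D3:**
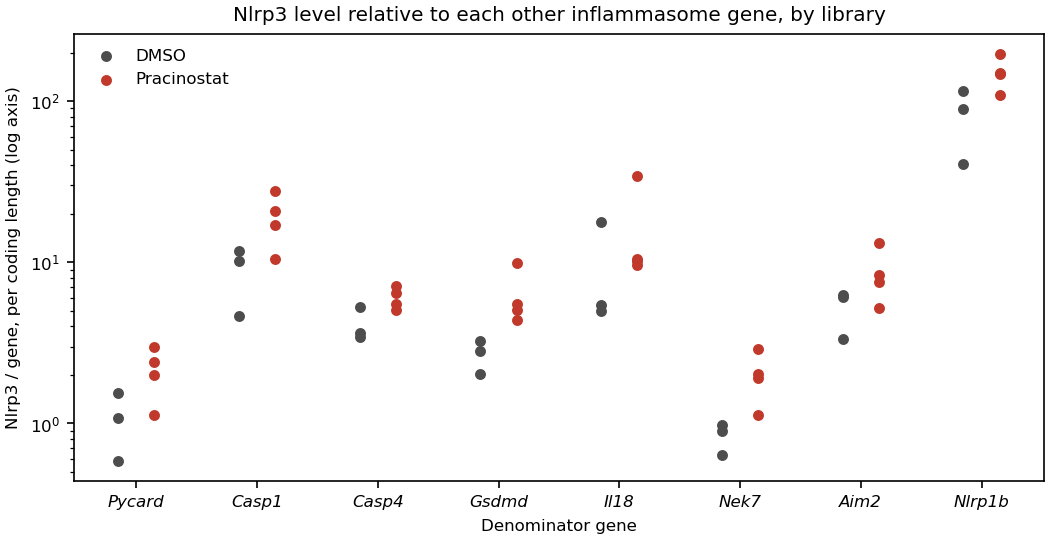
Ratio of Nlrp3 to each of the other 8 genes per coding length (vertical log axis) in each library, DMSO in grey and Pracinostat in red. The groups are apart for Gsdmd (2.02 to 3.23 against 4.41 to 9.86) and Nek7 (0.636 to 0.973 against 1.12 to 2.89) and overlap for the other 6.

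The order of the levels depended on the length used. Per kilobase of coding sequence, the DMSO libraries had Nek7 at 143 ± 11.7 (SD, n = 3), Pycard at 123 ± 42.5 and Nlrp3 at 118 ± 17.2 CPM per kilobase, which did not differ beyond the spread between libraries for Pycard and its neighbours. Gsdmd followed at 44.7 ± 4.67, Casp4 at 29.6 ± 6.85, Aim2 at 23.6 ± 5.05, Il18 at 17.1 ± 9.40 and Casp1 at 14.9 ± 5.53 CPM per kilobase; of these, Casp4, Aim2, Il18 and Casp1 overlapped with their neighbours between libraries, and Gsdmd was above Casp4 in each DMSO library. Nlrp1b, at 1.66 ± 0.686, was below all others. With Pracinostat, Nlrp3 came first at 243 ± 56.0 (SD, n = 4), above Nek7 at 128 ± 24.8 and Pycard at 120 ± 27.5 CPM per kilobase. Its mean percentile among the 12123 tested genes with a coding length was 91.1 with DMSO and 95.8 with Pracinostat, while Casp1 stood at 47.3 and 45.7. Pycard and Nek7 have long annotated transcripts for their coding sequences (3800 against 579 and 5258 against 906 bases). Scaled by the whole transcript, Nlrp3 was first with DMSO too, at 93.2 CPM per kilobase, before Gsdmd at 36.4, Nek7 at 24.7, Casp4 at 23.1 and Pycard at 18.7.

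The members differed in how widely they spread between libraries. For Nlrp3 the coefficient of variation was 14.6% with DMSO and 23.1% with Pracinostat, beside 1.41 and 0.963% from counting alone. For Nlrp1b it was 41.4 and 31.2%, beside 11.3 and 10.9% from counting, and for Il18 55.1 and 36.4%, beside 8.49 and 8.28%. Deviations from each gene's mean over the 7 libraries were compared between members by their root mean square difference on log2 CPM, a description over libraries that share their depth and composition. Of the 36 pairs the closest was Casp1 with Nlrp1b, at 0.20, a pair named after its values were seen. The ratio of Casp1 to Nlrp1b per coding length stayed between 7.03 and 10.3 in the 7 libraries, while Casp1 itself ran from 7.94 to 25.6 CPM. Next came Pycard with Nek7, at 0.24. Casp4 was the member nearest to Nlrp3, at 0.36, and Il18 the farthest, at 0.88.

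**Figure D4:**
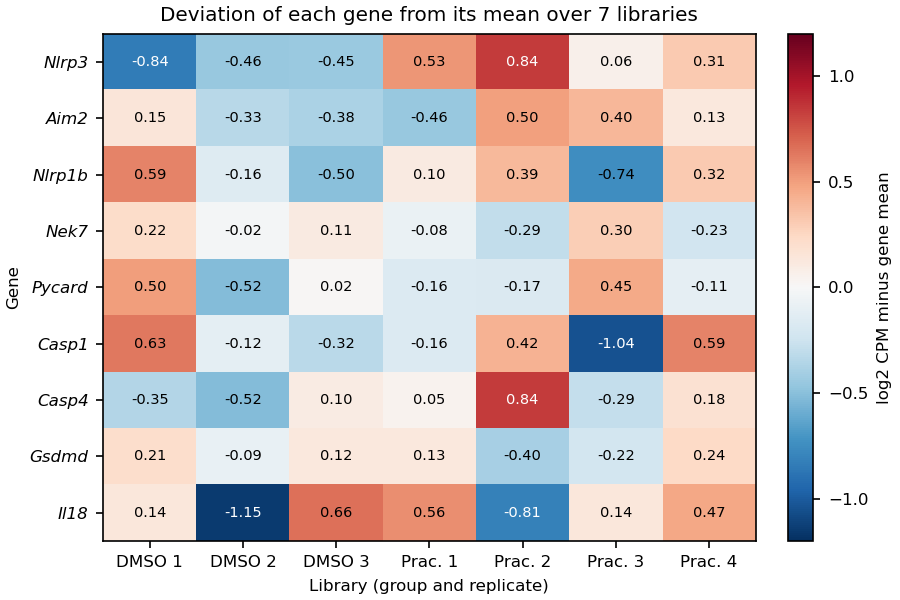
Deviation of log2 CPM (prior count 2) from each gene's mean over the 7 libraries, genes in rows and libraries in columns, red above and blue below the mean. Nlrp3 is below 0 in the 3 DMSO libraries and above 0 in the 4 Pracinostat libraries; Casp1 and Nlrp1b share their low in Pracinostat replicate 3, at -1.04 and -0.74.

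The libraries could not be ordered by the members as a group. DMSO replicate 1 and Pracinostat replicate 2 were each highest in 3 of the 9 genes: the former in Pycard, Casp1 and Nlrp1b, the latter in Nlrp3, Casp4 and Aim2. DMSO replicate 2 was lowest in 3, namely Pycard, Casp4 and Il18. Pracinostat replicate 2 was also the lowest in Gsdmd and Nek7, so the library with the most Nlrp3 had the least of 2 of its partners.

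Genes whose library pattern was most like that of Nlrp3 were sought by the same measure among 10007 genes whose log2 CPM averaged 2 or more. The measure includes the difference between the groups, so it favours genes that are higher with Pracinostat, and the likeness is a description. The nearest was Tnfaip3, at a difference of 0.11. Tnfaip3 encodes A20, a ubiquitin-editing inhibitor of NF-kappaB signalling. It stood at 621, 853 and 826 CPM with DMSO and 1616, 1860, 974 and 1202 CPM with Pracinostat, the same order of the Pracinostat libraries as for Nlrp3. Znrd2 (0.15), Mthfsl (0.17), Miip (0.17) and Caprin2 (0.18) followed, of which Znrd2, Miip and Caprin2 stayed at 10.2 CPM or below in every library. Among the members, 106 of these genes were nearer to Nlrp3 than Casp4 was.

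Around the 9 genes, 7 lists of related genes were examined, of which 91 members were tested, and 0 of the 91 had an edgeR adjusted p under 0.05. At an unadjusted p under 0.05 there were 16, 12 of them higher and 4 lower with Pracinostat, beside 4.18% of all genes tested (2.81% higher, 1.37% lower). DESeq2 called 3 of the 91, namely Il1a, Tlr2 and Tnfaip3, beside 0.171% of all genes, and limma-voom called 0. Since the 7 lists were chosen with results of these libraries known, nothing is read from these counts.

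The lists nearest to the sensor gave no single direction. Of 9 other sensors tested, 5 were positive, with a median of 0.044. Nlrp1a, a paralog of Nlrp1b, was at 0.55 ± 0.32, Naip2, which recognises bacterial secretion-system proteins, at 0.22 ± 0.18 and its partner Nlrc4 at -0.65 ± 0.72 (log2 fold changes). Of 14 upstream triggers and channels 8 were positive, with a median of 0.017; the smallest p belonged to the ATP-gated channel P2rx4 (-0.37 ± 0.19), the chloride channel gene Clic4 (0.45 ± 0.29) and Lrrc8a (0.34 ± 0.25), a subunit of volume-regulated anion channels. Of 17 post-translational regulators 11 were positive, with a median of 0.027. Pstpip1, which binds the sensor pyrin, stood at 46.3, 31.8 and 23.6 CPM with DMSO and 19.8, 21.4, 11.5 and 20.5 CPM with Pracinostat (-0.89 ± 0.31), and the deacetylase gene Sirt2 at 144 to 165 and 117 to 123 CPM (-0.38 ± 0.15). In both, each Pracinostat library was below each DMSO library, and neither passed (edgeR adjusted p = 0.9998). Txn1, which encodes thioredoxin, was at -0.74 ± 0.36.

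Priming receptors and signalling held 8 of the 16 genes with an unadjusted p under 0.05. Of its 20 genes 12 were positive, with a median of 0.17, and 7 of the 8 were higher, beside 2.81% of all genes that were higher and 1.37% lower at that p. The list was chosen with results of these libraries known, so its count is no independent evidence of a direction. Tlr2, the receptor for bacterial lipoproteins, stood at 349, 288 and 367 CPM with DMSO and 547, 523, 642 and 485 CPM with Pracinostat, which gave 0.71 ± 0.16 (edgeR adjusted p = 0.636). Nfkbia, the inhibitor that holds NF-kappaB in the cytosol, stood at 321 to 460 and 555 to 749.6 CPM (0.71 ± 0.18). Both groups were apart, as for Tnfaip3 (0.88 ± 0.21). Pracinostat replicate 3, the lowest of its group for Nlrp3, was the lowest for Tnfaip3 and Nfkbia and the highest for Tlr2.

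Downstream, 9 interleukin-1 family genes were tested, of which 7 were positive, with a median of 0.64. Il1b, the main substrate of caspase-1, stood at 466, 420 and 186 CPM with DMSO and 935, 932, 174 and 455 CPM with Pracinostat. Pracinostat replicates 1 and 2 were high and replicate 3 was the lowest of all libraries, so the groups overlapped (0.80 ± 0.67). Il1a, a related cytokine that needs no caspase-1 cleavage, stood at 73.0, 76.6 and 168 CPM with DMSO and 274, 442, 248 and 244 CPM with Pracinostat, and its groups were apart (1.51 ± 0.35, edgeR adjusted p = 0.924). Il1r1, the signalling receptor, was low, at 5.28 to 6.37 and 10.2 to 13.9 CPM. Il18bp, the secreted antagonist of interleukin-18, stood at 30.1, 29.1 and 43.9 CPM with DMSO and 26.7, 28.4, 12.1 and 20.7 CPM with Pracinostat, each Pracinostat library below each DMSO library (-0.64 ± 0.31), while Il18 itself overlapped.

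The other caspases, gasdermins and lytic death effectors had 5 of 11 positive and a median of -0.037. Ninj1, whose product ruptures the plasma membrane after gasdermin pores form, was at -0.38 ± 0.24. Among guanylate-binding proteins and cytosolic nucleic acid sensors 7 of 11 were positive, with a median of 0.22. Irf1, an interferon regulatory factor, stood at 127 to 136 CPM with DMSO and 162 to 232 CPM with Pracinostat (0.57 ± 0.16, edgeR adjusted p = 0.996). Igtp and Gbp5, interferon-inducible GTPases, were at 0.84 ± 0.32 and 0.62 ± 0.26, while Gbp3 was at -0.73 ± 0.33 and Gbp2 and Gbp7 at -0.037 ± 0.38 and -0.073 ± 0.38 (these 3 named after their values were seen).

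**Figure D5:**
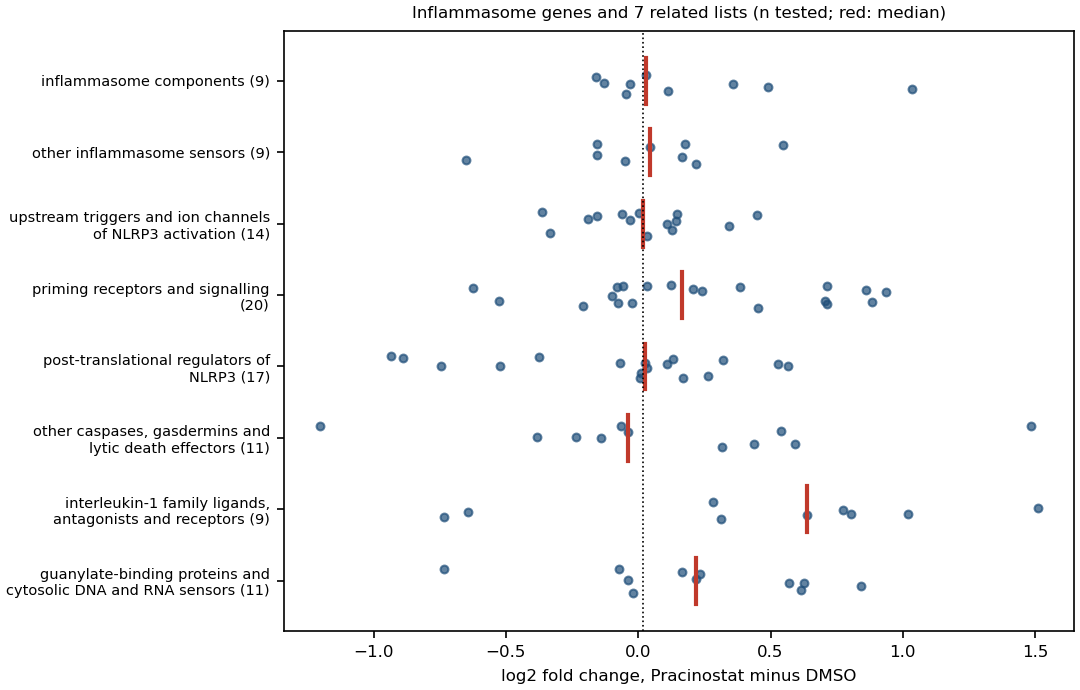
Log2 fold change, Pracinostat minus DMSO (horizontal axis), of every tested gene of the 9 components and of 7 related lists, 1 point per gene, with the number tested in brackets and the list median in red. The dotted line is the median of all genes tested, 0.020; list medians run from -0.037 to 0.64.

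Markers of other cells were read beside the Nlrp3 difference. The 12 neutrophil markers, none of which was at 0 in every library, summed to 397 to 643 CPM with DMSO and 368 to 632 CPM with Pracinostat. Most of that sum was Csf3r, at 271 to 411 CPM in the 7 libraries. It stood at 360 CPM in Pracinostat replicate 3, where Mmp9, Ngp, S100a9 and Ltf were at 0. The sum therefore does not follow those genes. Of the 11 neutrophil markers that were tested 9 were positive, with a median log2 fold change of 0.59, and 0 passed (edgeR). Mmp9 went the other way, at 39.5, 52.1 and 116 CPM with DMSO and 18.2, 15.7, 0 and 35.0 CPM with Pracinostat. Each Pracinostat library was below each DMSO library for Mmp9. The granule gene Ngp stood at 59.7, 0.240 and 0 CPM with DMSO and at 30.7, 100.03, 0 and 43.6 CPM with Pracinostat, and S100a9 at 45.8, 8.88 and 0.515 CPM with DMSO and 49.4, 38.0, 0 and 22.5 CPM with Pracinostat. Both were thus high in DMSO replicate 1 and Pracinostat replicates 1, 2 and 4 and low in the other 3 libraries (0 counts in Pracinostat replicate 3 allow up to 0.198 CPM, for counting error only). The 12 dissociation-response genes, which cells also induce while tissue is processed, summed to 10812, 11404 and 13881 CPM with DMSO and 13663, 16154, 11698 and 12350 CPM with Pracinostat. They were highest in Pracinostat replicate 2 and lowest in DMSO replicate 1, as was Nlrp3, with 9 of 12 positive and a median log2 fold change of 0.084. The most abundant of them by total counts was Egr1. It stood at 1902, 1889 and 2839 CPM with DMSO and 2863, 3769, 2911 and 3025 CPM with Pracinostat. Its groups were thus narrowly apart, whereas those of Fos, Zfp36, Jun and Fosb, next by total counts, overlapped. The 10 monocyte-derived cell markers summed to 4464 to 6250 and 3515 to 10119 CPM, most of it Fn1, at 3805 to 5126 CPM with DMSO and 2919 to 9829 CPM with Pracinostat. Only 2 of the 10 were positive, and the median log2 fold change was -0.45. Mgst1, named after its values were seen, stood at 21.0, 29.2 and 22.1 CPM with DMSO and at 13.0, 9.31, 2.05 and 3.77 CPM with Pracinostat, so its groups did not overlap (edgeR adjusted p = 0.9998), whereas those of Vcan, Chil3 and F10 did. The 8 dendritic cell markers summed to 144 to 151 and 142 to 243 CPM, the highest in Pracinostat replicate 2. Siglech was the most abundant of them, at 61.3, 54.9 and 111.5 CPM with DMSO and 51.4, 110, 118 and 86.2 CPM with Pracinostat. Flt3 came next by total counts, at 32.4, 40.6 and 12.3 CPM with DMSO and 44.0, 45.4, 8.66 and 32.3 CPM with Pracinostat. The sum thus hides differences between libraries. The part of neutrophils, monocyte-derived cells, dendritic cells and the dissociation response in the Nlrp3 difference was not tested. Fibroblast markers were high in DMSO replicate 2 (1060 CPM) and Pracinostat replicate 1 (698 CPM), and without both libraries the log2 fold change of Nlrp3 was 1.08.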

How the data were processed

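RNA-seq libraries of sorted CD11b+ cells were made from 1 ng of total RNA with a stranded kit and sequenced as pairs of 150 bases, per the labels' protocols. Trim Galore, FastQC, STAR, RSEM, MultiQC, DESeq2 and the build GRCm39 are named in the submitters' processing notes, without versions or roles; annotation and strand setting: not given in the sources used here. The values the authors deposited are expected counts per gene symbol, stored as whole numbers and not normalized. The dose of 30 mg/kg is taken from the labels, which elsewhere describe the prepared solution as 3 mg/kg.

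Pracinostat was compared with DMSO over the whole table with the quasi-likelihood test of edgeR 4.0.16 under R 4.3.3 (two-sided, robust estimation, TMM factors), after filterByExpr at a count of 10, and with Benjamini-Hochberg adjustment over 15822 genes at 0.05. The standard error is the absolute log2 fold change over the square root of F. Lengths came from GENCODE M21 (GRCm38) by symbol and were used as lengths only. The members and lists were chosen with earlier results of these data known. Besides the 9 members, the text names up to 3 genes per related list with the smallest p, the 5 genes most like Nlrp3 and the most abundant markers; Il1b was named outside that rule, as the substrate of caspase-1. Some genes that the rule names are not reported here. The fit was tested on simulated data. Each pair of libraries differed by more than sampling noise, with a lowest chi-square of 32.3 per degree of freedom. Alternatives covered scaling, filter, DESeq2 1.42.0, limma-voom 3.58.1, robust estimation, left-out libraries and a replicate block.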

Additional observations from a re-analysis of the deposited data

Results flagged for a closer look

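Each of 62 values was screened over the Pracinostat group of 4 for 1 library far from the rest relative to the group's range (Dixon's criterion). That was met by 8 values, and by chance about 1 in 20 would meet it. DMSO, with 3 libraries, was too small a group for the screen. Among the 9 components, Pycard in Pracinostat replicate 3 stood at 93.5 CPM, against 60.6 to 63.3 CPM in the other Pracinostat libraries and 47.5 to 96.6 CPM with DMSO. The ratio of Nlrp3 to Il18 per coding length was 34.2 in Pracinostat replicate 2, whereas the other Pracinostat libraries lay at 9.62 to 10.5 and DMSO at 4.96 to 17.7. The ratio of Nek7 to Pycard was 1.19 in Pracinostat replicate 1, compared with 1.01 to 1.04 elsewhere in the group; DMSO ran from 0.927 to 1.60.

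Among related genes, Pstpip1 stood at 11.5 CPM in Pracinostat replicate 3 (others 19.8 to 21.4, DMSO 23.6 to 46.3) and Il1a at 442 CPM in Pracinostat replicate 2 (others 244 to 274, DMSO 73.0 to 168). Summed markers of macrophages and microglia were 12886 CPM in Pracinostat replicate 3 (others 9231 to 9733, DMSO 8465 to 9947). In Pracinostat replicate 1, fibroblast markers summed to 698 CPM (others 19.5 to 40.4, DMSO 19.6 to 1060) and oligodendrocyte markers to 1047 CPM (others 214 to 355, DMSO 192 to 362). What these libraries' makeup contributes to the members' values was not tested.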

How the results depend on the processing

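Nlrp3 stayed positive under all 17 alternatives, with log2 fold changes of 0.88 to 1.15. Its adjusted p passed with no low-count filter (7.29e-06) and with DESeq2 (0.00106) and ran from 0.0689 to 0.9999 in the other 15, the lowest without Pracinostat replicate 3. Accordingly 1 member was called with no filter and 1 with DESeq2, and 0 under the other alternatives. At an adjusted p under 0.1, edgeR's fit to all libraries still called 0 members. Without Pracinostat replicate 3, Nlrp3 was under that looser threshold (0.0689). Over all genes, the count of 0 became 63 with no filter, 27 with DESeq2 and 4 with the replicate block; leaving out 1 library gave 0 to 3, the 3 without DMSO replicate 3. Leaving out 1 library gave 1 to 2 members with groups apart, the added member being Casp4 without DMSO replicate 3 and Nek7 without Pracinostat replicate 3. In both, the library left out was the one that made the groups overlap. Smaller groups come apart more easily, and the 6.1% over all genes holds for the full set of libraries, so nothing is read from this count. Of 153 member values under alternatives, 18 changed sign, all of genes near 0. Leaving out 1 library gave -0.25 to 0.26 for Pycard, -0.28 to 0.30 for Casp1, -0.25 to 0.55 for Il18, -0.19 to 0.41 for Nlrp1b and -0.090 to 0.24 for Ptprc. With limma-voom Pycard was at 0.0066. Without both libraries rich in the collagen gene Col1a1, Il18 was at -0.40 and Nlrp1b at -0.066. With the replicate block Pycard was at 0.030, Nlrp1b at -0.079 and Ptprc at -0.018. The cause was not tested. The block leaves out Pracinostat replicate 4; the labels do not say that equal numbers pair samples, and deviations of same-numbered libraries correlated at 0.0445, -0.0352 and 0.0728, which does not show pairing. With the block Nlrp3 was at 1.05 (adjusted p = 0.252). The intervals of Nlrp1b, Il18 and Casp1 are the widest. Counting error alone (6.45 to 11.3%) is smaller than their spread between libraries (31.2 to 55.1%). That error leaves out noise from making the libraries, and what set the spread was not tested.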
